A study of Homo sapiens with 30 samples.

Results

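Lineages 35 and 45 were derived from MDA-MB-231, a triple-negative human breast cancer cell line, and are called clones in the series design. Their transcriptomes were compared while each grew alone. The comparison rests on 6 of the 30 libraries of the series: the 3 libraries labelled lineage 35 in isolation and the 3 labelled lineage 45 in isolation. All 26475 genes of their shared count table entered, of which 14570 had enough counts to be tested. Both groups were MDA-MB-231 derivatives kept for about 24 h in RPMI medium with 10% dialyzed serum and 2 mM glutamine, with the genotype given as wild type and each a distinct lineage. Whether the 3 libraries of each lineage are separate cultures is not stated. The p-values thus measure only spread between libraries of a group, which may be technical. That spread was estimated over all 18 libraries of the shared table. The series, by its title, concerns cooperation between clones through exchanged metabolites. Its other groups are lineage 22 alone, lineages 22, 35 and 45 sorted by FACS out of a co-culture with 6 members that ran for 15 days with passages every 3 days, and, in a separate table, lineages 03, 10, 13 and a group called Pop, all alone.

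A cancer cell line can hold subclones that differ in copy number, chromatin state and gene expression. MDA-MB-231 cells are mesenchymal-like, lack estrogen and progesterone receptors, and are known for strong integrin, protease, NF-kappaB and interferon programs. Genes switched fully on in one subclone and off in another are often held in that state through cell division by chromatin marks, with DNA methylation at CpG-rich promoters the best known.

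Depth was 31197420 to 35990811 estimated counts in the lineage 35 libraries and 34859454 to 38843676 in the lineage 45 libraries, with 15849 to 16094 and 16733 to 16758 genes detected. The first principal component of the 6 libraries held 84.4% of the variance and placed the groups apart, and the biological coefficient of variation was 9.65% within lineage 35 and 8.39% within lineage 45. Every one of 10 genes known from MDA-MB-231 was detected in both lineages, at a summed 8250 to 8873 CPM in lineage 35 (CPM are counts scaled to a common library total) and 9098 to 9858 CPM in lineage 45. The hormone receptor genes ESR1 and PGR had 2 and 0 counts over the lineage 35 libraries and 1 and 1 over the lineage 45 libraries.

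Lineage 35 differed from lineage 45 in 51.8% of the genes tested, and more of the large differences were falls than rises. Of 14570 genes tested, 3535 (24.3%) were higher and 4018 (27.6%) lower in lineage 35 (edgeR quasi-likelihood test, Benjamini-Hochberg adjusted p below 0.05, the rule meant by "called" throughout). At least 2-fold differences split into 715 higher (4.91%) and 1594 lower genes (10.9%), at least 4-fold differences into 188 higher (1.29%) and 865 lower (5.94%), and at least 8-fold differences into 91 higher (0.625%) and 528 lower (3.62%). The libraries of the 2 lineages did not overlap for 28.8% of tested genes in the higher direction and 32.3% in the lower direction. The median log2 fold change over all genes was -0.031, so the list medians below are read against a value near 0. Counts of list members below are read against 24.3% higher and 27.6% lower. A filter that kept only genes of at least 5 CPM in 3 libraries left 357 higher and 793 lower genes at 2-fold. Of genes whose higher group was under 1 CPM 36.7% were called at 2-fold or more, and of those over 100 CPM 5.43%.

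**Figure D1:**
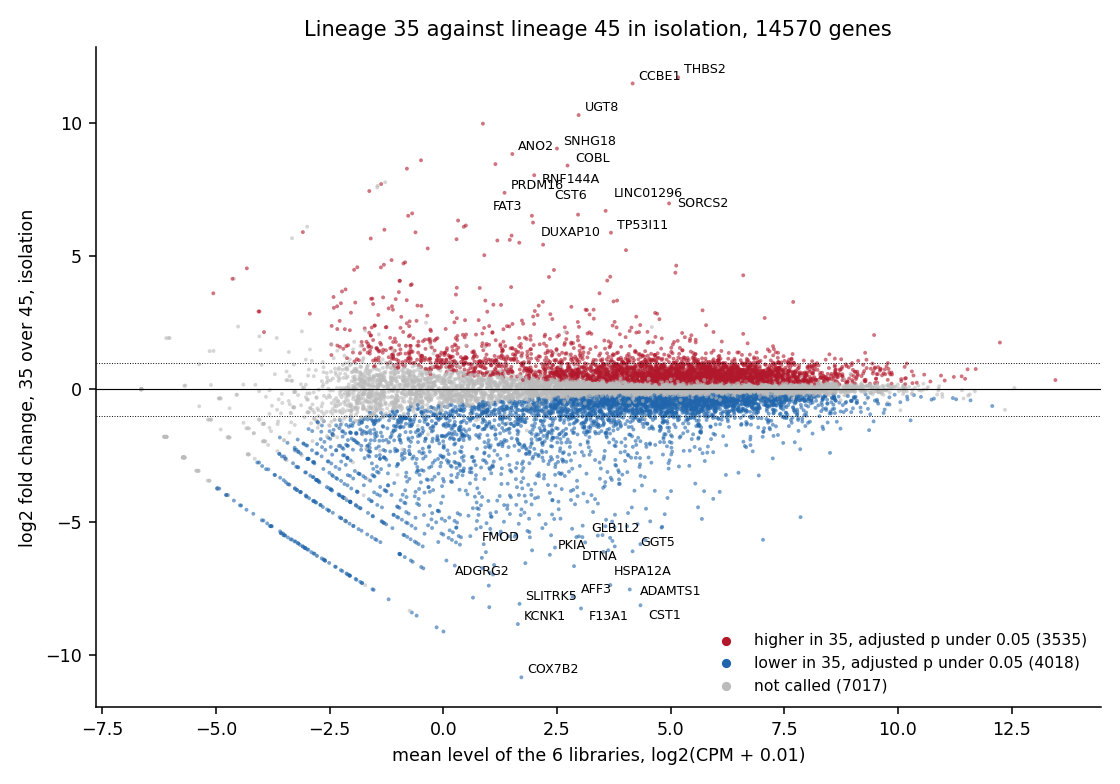
Each point is 1 of 14570 genes, with the mean level of the 6 libraries on the x axis (log2 of CPM + 0.01) and the fitted log2 fold change of lineage 35 over lineage 45 on the y axis. Red and blue mark the 3535 higher and 4018 lower genes, dotted lines mark 2-fold, the named genes are the 14 largest rises and falls at 5 CPM or more, and the slanted rows of points at the left are genes with 0 or few counts in one group, whose fitted values depend on the prior count. The blue points reach far below the 2-fold line at all but the highest levels, while the red ones mostly stay close to it.

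Some genes were expressed in one lineage and close to absent in the other, meaning at most 3 counts summed over its 3 libraries against at least 5 CPM. Lineage 45 lacked 7 such genes (THBS2, CCBE1, UGT8, SNHG18, RNF144A, ANO2 and PRDM16) and lineage 35 lacked 3 (COX7B2, SLITRK5 and KCNK1). The reference promoters of 2 genes of each kind are shown to place these on and off states beside their sequence. They come from RefSeq (GRCh38.p14), cover 300 bases around the start in the direction of transcription, and carry CpG dinucleotides in capitals.
THBS2: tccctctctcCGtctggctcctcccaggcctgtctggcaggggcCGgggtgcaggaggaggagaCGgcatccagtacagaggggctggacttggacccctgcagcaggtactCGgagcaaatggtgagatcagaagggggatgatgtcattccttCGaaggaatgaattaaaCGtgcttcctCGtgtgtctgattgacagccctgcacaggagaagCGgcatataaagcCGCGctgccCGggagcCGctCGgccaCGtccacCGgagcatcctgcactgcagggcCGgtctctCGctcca
SNHG18: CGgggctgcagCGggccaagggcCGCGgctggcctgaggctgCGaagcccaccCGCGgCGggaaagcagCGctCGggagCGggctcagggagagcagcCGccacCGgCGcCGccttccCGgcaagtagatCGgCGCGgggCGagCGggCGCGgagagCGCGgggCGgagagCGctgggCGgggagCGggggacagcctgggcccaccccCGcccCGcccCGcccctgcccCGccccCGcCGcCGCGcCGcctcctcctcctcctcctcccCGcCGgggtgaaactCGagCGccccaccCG
KCNK1: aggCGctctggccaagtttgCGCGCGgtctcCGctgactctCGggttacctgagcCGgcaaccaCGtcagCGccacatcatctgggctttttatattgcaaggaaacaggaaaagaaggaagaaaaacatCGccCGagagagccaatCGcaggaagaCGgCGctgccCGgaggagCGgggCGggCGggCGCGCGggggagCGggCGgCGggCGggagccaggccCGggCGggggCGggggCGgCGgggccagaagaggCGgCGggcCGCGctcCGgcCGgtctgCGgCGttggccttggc
COX7B2: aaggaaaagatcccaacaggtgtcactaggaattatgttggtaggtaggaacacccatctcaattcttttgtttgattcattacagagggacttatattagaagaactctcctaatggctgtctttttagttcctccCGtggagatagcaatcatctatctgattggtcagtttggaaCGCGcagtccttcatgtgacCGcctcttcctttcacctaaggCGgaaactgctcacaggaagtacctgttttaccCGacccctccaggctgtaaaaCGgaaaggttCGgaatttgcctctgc
The THBS2 promoter (chr6:169253797-169254096, minus strand) held 17 CpG, the SNHG18 promoter (chr5:9545950-9546249, plus strand) 43, the KCNK1 promoter (chr1:233613856-233614155, plus strand) 38 and the COX7B2 promoter (chr4:46909196-46909495, minus strand) 8, where the median over 35116 promoters of the same length was 14. The promoters shown thus lay on both sides of that median, with only COX7B2 below it. Searched on both strands, the TATA box letters TATAAA were found once in the THBS2 promoter and once in the KCNK1 promoter, against 11.5% of all these promoters with a match. The letters of a TEAD motif, GGAATG, were found at 2 places in the THBS2 promoter (14% of promoters had a match) and those of an AP-1 motif, TGANTCA, once in the COX7B2 promoter (7.71% had a match). These are letter matches, and methylation or factor binding was not measured.

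THBS2 encodes thrombospondin 2, a secreted matricellular protein that restrains blood vessel growth, and it lies on chromosome 6 (169215780 to 169254044). Its level was 77.5, 74.0 and 63.9 CPM in the lineage 35 libraries and 0, 0.0270 and 0.0250 CPM in the lineage 45 libraries. All 3 lineage 35 libraries were thus high and no lineage 45 library was above 1 count. The ratio was 4046 (7125 against 2 counts, 95% counting interval 1120 to 33410, adjusted p = 3.8e-15). In no other group of either table did THBS2 reach 1 CPM.

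CCBE1, a secreted protein that promotes lymphatic vessel growth (chromosome 18, 59430939 to 59697662), measured 37.1, 38.6 and 31.8 CPM in lineage 35 and 0, 0.0270 and 0 CPM in lineage 45. The ratio was 4048 (95% counting interval 726 to 159900, adjusted p = 2.1e-12). The galactosyltransferase gene UGT8, which makes the galactolipids of myelin (chromosome 4, 114598455 to 114678224), measured 15.5, 16.7 and 15.0 CPM against 0, 0 and 0.0250 CPM. Its ratio was 1775 (95% counting interval 318 to 70160, adjusted p = 1.1e-14). Unlike THBS2, both were present elsewhere: CCBE1 at 19.8 to 43.5 CPM in the 4 groups of the second table, and UGT8 at 15.3 CPM in isolated lineage 22.

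The small nucleolar RNA host gene SNHG18 and its neighbor SEMA5A were on together in lineage 35 and off together in lineage 45. SNHG18 (chromosome 5, 9546200 to 9550609) measured 10.8, 9.73 and 13.3 CPM in lineage 35 and 0.0280, 0.0270 and 0 CPM in lineage 45 (ratio 631, 95% counting interval 174 to 5220, adjusted p = 2.1e-11). SEMA5A, a membrane semaphorin that guides axons (chromosome 5, 9035026 to 9546075), measured 6.59, 3.27 and 3.33 CPM against 0.0280, 0 and 0 CPM (ratio 487, 95% counting interval 87.0 to 19290, adjusted p = 4.1e-07). The 2 genes are transcribed away from each other, with 124 bases between their starts, so the SNHG18 promoter printed above also holds the start of SEMA5A. Both were near 0 in lineage 22 and present in lineage 03 (7.66 and 3.00 CPM) and Pop (2.35 and 1.88 CPM), and their window of neighboring genes had a median log2 fold change of -0.09. SEMA5A was singled out after its values were seen.

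The other 3 genes close to absent from lineage 45 had lower levels in lineage 35 than THBS2, CCBE1, UGT8 and SNHG18. RNF144A, a ubiquitin ligase, measured 6.42, 8.65 and 8.78 CPM in lineage 35 (ratio 300.2, 95% counting interval 102 to 1459). ANO2, a calcium-activated chloride channel, measured 6.17, 6.01 and 4.92 CPM (ratio 643, interval 115 to 25430). PRDM16, a zinc finger regulator of brown fat and blood stem cells, measured 5.33, 5.18 and 4.61 CPM (ratio 189, interval 64.4 to 921). ANO2 and PRDM16 were also present in isolated lineage 22, at 3.66 and 4.09 CPM, where RNF144A was near 0.

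In the opposite direction COX7B2, a testis form of a cytochrome c oxidase subunit (chromosome 4, 46734827 to 46909235), had 0 counts in all 3 lineage 35 libraries and 7.06, 6.67 and 5.94 CPM in lineage 45, at least 216-fold lower (floor of 3 counts over the group, adjusted p = 1.0e-08). KCNK1, a potassium leak channel (chromosome 1, 233614004 to 233672512), measured 0, 0 and 0.0311 CPM in lineage 35 and 6.42, 5.89 and 6.31 CPM in lineage 45 (ratio 616, 95% counting interval 110.1 to 24340, adjusted p = 1.9e-14). SLITRK5, a neuronal membrane protein (chromosome 13, 87672615 to 87696272), measured 0, 0.0277 and 0.0311 CPM against 5.77, 6.83 and 6.46 CPM (ratio 316, interval 87.1 to 2612, adjusted p = 3.0e-15). All of these genes were at 0.0747 CPM or less in lineages 03, 10 and 13, and COX7B2 had 0 counts there. COX7B2 stood apart in isolated lineage 22, at 0 counts, and in Pop, at 0.606 CPM. SLITRK5 and KCNK1 were at 3.33 and 3.79 CPM in isolated lineage 22 and at 2.97 and 3.55 CPM in Pop.

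**Figure D2:**
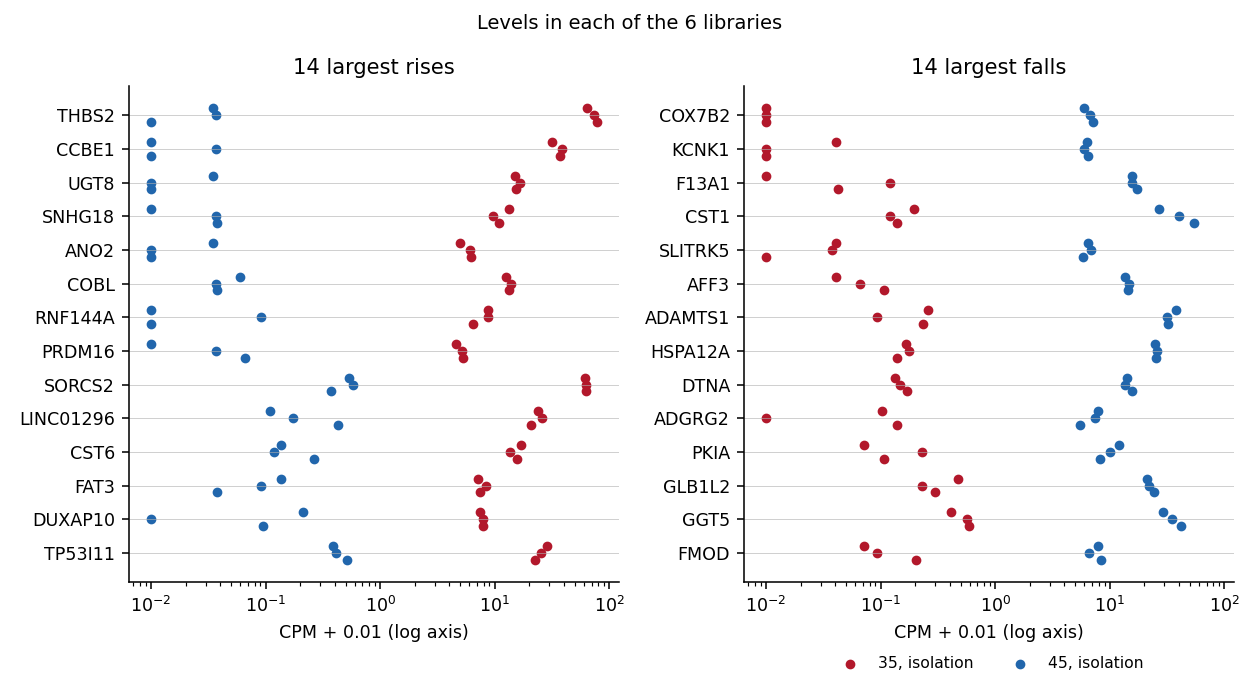
The 14 largest rises (left) and 14 largest falls (right) among called genes of at least 5 CPM in the higher group, as the level in each library (CPM + 0.01, log axis). Each dot is 1 library, red for lineage 35 and blue for lineage 45. The 2 colors stay apart in every row, and the lower group lies under 1 CPM for all 28 genes.

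The other large rises included receptors, adhesion and cytoskeletal genes. SORCS2, a sorting receptor for neurotrophins (chromosome 4, 7192538 to 7742836), measured 62.0, 62.6 and 61.4 CPM in lineage 35 and 0.364, 0.567 and 0.526 CPM in lineage 45, 126-fold higher (log2 6.98 ± 0.27, SE, adjusted p = 2.8e-13). COBL, an actin nucleator, was 338-fold higher (13.2 ± 0.772 against 0.0350 ± 0.0130 CPM, mean ± SD, n = 3), and FAT3, a giant cadherin, 91.5-fold (7.62 ± 0.653 against 0.0781 ± 0.0487 CPM). The cysteine protease inhibitor CST6 was 94.2-fold higher (15.4 ± 1.78 against 0.162 ± 0.0787 CPM) and TP53I11 58.9-fold (25.3 ± 3.17 against 0.428 ± 0.0674 CPM). The noncoding RNA LINC01296 and the pseudogene DUXAP10 also rose, 104-fold and 76.6-fold, but both belong to repeated gene families and reads may be shared with their copies.

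The large falls included secreted and matrix proteins. F13A1, the transglutaminase chain of coagulation factor XIII (chromosome 6, 6144085 to 6321013), measured 0.0323, 0.111 and 0 CPM in lineage 35 and 17.3, 15.8 and 15.7 CPM in lineage 45, 302-fold lower (log2 -8.24 ± 0.29, adjusted p = 3.3e-15). The matrix protease ADAMTS1 (chromosome 21, 26835747 to 26845409) measured 0.226, 0.0831 and 0.249 CPM against 32.4, 31.9 and 38.0 CPM, 184-fold lower (log2 -7.52 ± 0.26). The small proteoglycan FMOD was 66.4-fold lower. The cystatin CST1 was 278-fold lower, but its lineage 45 libraries ranged from 26.7 to 54.0 CPM and it resembles other cystatin genes, so reads may be shared.

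Intracellular and membrane proteins fell as well. The transcriptional regulator AFF3 was 223-fold lower in lineage 35 (0.0611 ± 0.0332 against 14.3 ± 0.575 CPM), the chaperone-like HSPA12A 164-fold (0.150 ± 0.0191 against 25.4 ± 0.505 CPM) and the dystrophin partner DTNA 100.2-fold (0.142 ± 0.0186 against 14.5 ± 1.07 CPM). ADGRG2, an adhesion G protein-coupled receptor, was 92.8-fold lower, and PKIA, an inhibitor of protein kinase A, 74.6-fold. GLB1L2, a galactosidase-like gene, fell 69.2-fold and GGT5, a gamma-glutamyltransferase that handles leukotrienes, 68.2-fold.

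Inflammatory signals were mostly lower in lineage 35. Of 37 chemokine, cytokine and NF-kappaB target genes 30 were tested. In lineage 35, 25 were lower (27.6% of all genes were) and 2 higher (24.3%). Their median log2 fold change was -1.64 against -0.031 for all genes. IL11, a cytokine of the IL-6 family, measured 4.84, 5.65 and 7.91 CPM in lineage 35 and 38.3, 46.9 and 39.4 CPM in lineage 45, 6.77-fold lower (log2 -2.76 ± 0.16, adjusted p = 2.5e-11). The groups did not overlap. IL6 was 4.0-fold lower (2.59 ± 0.632 against 10.4 ± 1.82 CPM), IL18 3.88-fold (8.29 ± 1.10 against 32.1 ± 4.56 CPM) and IL1B 19.5-fold (0.050 ± 0.0157 against 1.05 ± 0.452 CPM). The neutrophil attractant CXCL8 was 5.30-fold lower, with 1 lineage 45 library at 17.4 CPM and the other 2 at 6.91 CPM. TNFAIP3, a feedback inhibitor of NF-kappaB, fell 2.93-fold.

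The exceptions were CX3CL1 and IL32. CX3CL1, a membrane-bound chemokine, measured 4.16, 4.43 and 7.13 CPM in lineage 35 and 0.308, 0.351 and 0.426 CPM in lineage 45, 14.3-fold higher (log2 3.84 ± 0.24, adjusted p = 2.8e-11). IL32, an inflammatory cytokine, was 3.92-fold higher (12.4 ± 2.93 against 3.15 ± 0.327 CPM). The filter at 5 CPM in 3 libraries left 17 members of the list, of which 13 were called lower.

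Genes of the prostaglandin pathway, which turns membrane arachidonic acid into lipid signals, were mostly lower. Of 20 listed genes 15 were tested, with 10 lower (27.6% of all genes were), 1 higher and 4 not called, and a median log2 fold change of -1.93. PLA2G4A, the phospholipase that frees arachidonic acid, measured 0.161, 0.0831 and 0.0934 CPM in lineage 35 and 4.43, 4.24 and 5.33 CPM in lineage 45, 40.8-fold lower (log2 -5.35 ± 0.25, adjusted p = 3.6e-13). PTGS2, the inducible cyclooxygenase COX-2, measured 0.0969, 0.139 and 0.0311 CPM against 5.94, 3.32 and 2.81 CPM, 42.6-fold lower (log2 -5.41 ± 0.39, adjusted p = 4.0e-10). No lineage 35 library came near the lineage 45 range for either gene. The 2 genes are neighbors on chromosome 1 with 148.5 kb between them, in a window of 50 genes whose median log2 fold change was -0.31.

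Downstream of the cyclooxygenase, the prostaglandin E synthase PTGES was 9.85-fold lower (3.95 ± 1.49 against 39.2 ± 14.4 CPM) and the thromboxane synthase TBXAS1 7.38-fold (1.91 ± 0.198 against 14.1 ± 0.706 CPM). The PGF2-alpha receptor PTGFR was 30.8-fold lower (0.0623 ± 0.0346 against 1.97 ± 0.439 CPM), and the PGE2 receptors PTGER2 and PTGER4 fell 3.81-fold and 1.44-fold. HPGD, which breaks prostaglandins down, fell 6.09-fold. Of the synthesis genes 5 of 7 tested were lower and of the receptors 3 of 3. The 1 higher member, the prostaglandin transporter SLCO2A1, was at 0.0911 CPM against 0.00835 CPM, and with the 2 lineages fitted alone it fell below the filter and no member was called higher.

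Interferon-stimulated genes, which encode antiviral proteins, were more often lower than higher. Of 40 tested, 27 were lower (27.6% of all genes were) and 4 higher (24.3%) in lineage 35. Without replicate 1 of lineage 45, 2 were higher. The median log2 fold change of the list was -0.744. OASL, a relative of the 2'-5' oligoadenylate synthetases, measured 14.8, 13.3 and 15.2 CPM in lineage 35 and 142, 136 and 125 CPM in lineage 45, 9.32-fold lower (log2 -3.22 ± 0.13, adjusted p = 2.7e-14). IFIT2, which binds foreign RNA, was 6.06-fold lower (43.0 ± 3.37 against 261 ± 11.7 CPM), OAS2 4.50-fold, IFI44 5.16-fold and HERC5, a ligase for ISG15, 3.53-fold. ISG15 itself fell 3.01-fold. Of transcription factor genes that drive these targets, IRF9 was 2.41-fold lower (4.85 ± 0.706 against 11.7 ± 1.32 CPM) and IRF1 was not called (log2 0.08 ± 0.12). The antiviral GTPase MX1 was not called either (13.2 ± 1.45 against 14.8 ± 1.57 CPM).

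Antigen presentation genes split by class. HLA class I molecules show peptides from inside the cell to killer T cells, and class II molecules show ingested peptides to helper T cells. All 5 class I heavy chain genes were higher in lineage 35, and 6 of 7 genes for the light chain, peptide transport and immunoproteasome were higher with none lower. All 8 class II genes tested, counting the chaperone CD74 and the regulator CIITA, were lower. This split by class was made after the values were seen. Over all genes 24.3% were higher and 27.6% lower.

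HLA-B measured 1076, 1139 and 1220 CPM in lineage 35 and 289, 284 and 265 CPM in lineage 45, 4.10-fold higher (log2 2.04 ± 0.09, adjusted p = 3.1e-13). HLA-C was 2.48-fold higher (514 ± 30.0 against 207 ± 9.56 CPM), HLA-F 5.01-fold and the peptide transporter TAP1 1.93-fold. B2M, the class I light chain on chromosome 15, was 1.31-fold higher. In contrast HLA-DRB1 measured 0.936, 1.36 and 1.74 CPM in lineage 35 and 9.86, 9.21 and 7.21 CPM in lineage 45, 6.48-fold lower (log2 -2.70 ± 0.31, adjusted p = 9.3e-07). HLA-DPA1 was 3.68-fold lower, HLA-DRA 2.69-fold, CIITA 1.82-fold and CD74 1.49-fold.

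Class I and class II chain genes lie in the same part of chromosome 6, where windows of 50 neighboring genes had median log2 fold changes of 0.529 to 0.688. The 6 class II chain genes were thus lower among neighbors that were mostly higher. HLA genes resemble one another, so some reads may be assigned to the wrong member. Both class I and the genes of the preceding list respond to interferon in many cells, and here their medians had opposite signs.

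Adhesion to the matrix was another lower group. Of 28 integrin and laminin genes 24 were tested, with 17 lower (27.6% of all genes were) and 2 higher (24.3%). Their median log2 fold change was -0.800. ITGB2, the beta chain of leukocyte-type integrins, measured 1.13, 0.887 and 0.996 CPM in lineage 35 and 31.1, 25.3 and 22.7 CPM in lineage 45, 26.3-fold lower (log2 -4.72 ± 0.16, adjusted p = 2.6e-15). The fibronectin receptor chain ITGA5 was 3.45-fold lower (58.5 ± 7.08 against 202 ± 12.7 CPM) and the collagen receptor chains ITGA1 and ITGA2 5.28-fold and 3.18-fold. The 2 higher members were the laminin receptor chain ITGA6 (1.89-fold, 788 ± 48.9 against 417 ± 62.3 CPM) and the vitronectin receptor chain ITGAV (1.48-fold), both on chromosome 2 in windows that were shifted upward.

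Matrix genes themselves moved both ways. Of 35 matricellular and hyaluronan genes 26 were tested, with 6 higher and 11 lower. Over all genes 24.3% were higher and 27.6% lower. Besides THBS2, thrombospondin 1 (THBS1) was higher, at 8257, 7461 and 6710 CPM against 2241, 2184 and 2229 CPM (3.37-fold, log2 1.75 ± 0.10, adjusted p = 7.5e-12). CEMIP, which starts hyaluronan breakdown, was 19.4-fold higher (184 ± 36.2 against 9.50 ± 2.52 CPM) and the hyaluronan synthase HAS2 3.56-fold. SPOCK1, a testican, was 45.8-fold lower and the latent TGF-beta binding protein LTBP1 4.45-fold. Of 24 collagen chains tested 5 were higher and 10 lower, so 62.5% were called against 51.8% of all genes. COL5A1 was 1.86-fold higher and COL6A1 2.40-fold lower.

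Matrix proteases had 7 higher (24.3% of all genes were) and 14 lower (27.6%) of 30 tested. The interstitial collagenase MMP1 measured 0.387, 0.333 and 0.374 CPM in lineage 35 and 28.6, 19.3 and 25.0 CPM in lineage 45, 66.3-fold lower (log2 -6.05 ± 0.30, adjusted p = 6.2e-12). The urokinase receptor PLAUR was 2.44-fold lower. ADAMTS12 was 3.51-fold higher (66.7 ± 14.9 against 19 ± 0.292 CPM) and SERPINB2, a plasminogen activator inhibitor, 13.9-fold, although at 3.24 against 0.225 CPM.

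Epithelial genes were more often lower than higher in lineage 35. Of 39 epithelial genes 32 were tested, with 8 higher and 20 lower in lineage 35 and a median log2 fold change of -0.629. At 2-fold or more 4 were higher and 12 lower. Over all genes 24.3% were higher and 27.6% lower, and at 2-fold 4.91% and 10.9%. The hair keratin KRT81 measured 14.6, 16.2 and 17.2 CPM in lineage 35 and 575, 399 and 369 CPM in lineage 45, 28-fold lower (log2 -4.81 ± 0.15, adjusted p = 3.4e-15), though it shares sequence with KRT86. The secreted AGR2 was 47.9-fold lower (0.524 ± 0.189 against 24.9 ± 4.10 CPM) and the tight junction claudins CLDN1 and CLDN7 fell 16-fold and 8.56-fold. The lipoprotein receptor LSR, a part of tricellular junctions, went the other way, at 69.9, 63.2 and 68.0 CPM against 3.36, 2.38 and 2.33 CPM (25.0-fold higher, log2 4.64 ± 0.15, adjusted p = 1.1e-15). The epithelial splicing factor ESRP2 was 5.25-fold higher and desmoplakin (DSP) 2.18-fold.

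The mesenchymal list also split, with 8 higher (24.3% of all genes were) and 9 lower (27.6%) of 21 tested. CDH11, a mesenchymal cadherin, measured 3.07, 3.71 and 3.36 CPM in lineage 35 and 58.2, 57.7 and 57.0 CPM in lineage 45, 17.0-fold lower (log2 -4.09 ± 0.14, adjusted p = 2.5e-15). Vimentin (VIM) was 1.34-fold lower (2650 ± 159 against 3546 ± 252 CPM). The transition factor SNAI2 was 2.55-fold higher (37.7 ± 3.41 against 14.8 ± 0.501 CPM), fibronectin (FN1) 1.95-fold and the methyltransferase NNMT 6.99-fold.

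Guidance genes, which steer growing axons and vessels, were mostly lower. Of 47 semaphorin, plexin, ephrin, netrin and SLIT genes 44 were tested, with 24 lower (27.6% of all genes were) and 5 higher (24.3%). Their median log2 fold change was -0.507. The netrin NTN4 measured 4.16, 4.82 and 3.86 CPM in lineage 35 and 87.9, 92.3 and 98.6 CPM in lineage 45, 21.6-fold lower (log2 -4.44 ± 0.12, adjusted p = 1.1e-16). SEMA3A was 14.2-fold lower (4.23 ± 0.391 against 60.2 ± 11.5 CPM), its coreceptor NRP2 10.3-fold and NRP1 2.33-fold. Of 7 class 3 semaphorins tested 6 were lower and none higher, a count made after the values were seen. SEMA5A, described above, was among the 5 higher members.

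Growth factor, Wnt and TGF-beta genes held large single differences. In these lists 74.4%, 81.25% and 64.7% of tested members were called, against 51.8% of all genes. Of 39 growth factor and MAPK genes tested 20 were lower and 9 higher, of 32 Wnt and Notch genes 18 lower and 8 higher (5 higher without replicate 2 of lineage 45), and of 34 TGF-beta and BMP genes 14 lower and 8 higher. The growth factor FGF5 measured 1.49, 1.83 and 1.21 CPM in lineage 35 and 49.7, 51.4 and 63.1 CPM in lineage 45, 36.0-fold lower (log2 -5.17 ± 0.18, adjusted p = 4.5e-15). The receptor MET was 2.38-fold lower and the MAPK phosphatase DUSP4 2.82-fold. WNT7B was 5.47-fold lower (9.99 ± 1.24 against 54.6 ± 1.73 CPM), while the Wnt receptor FZD7 was 3.30-fold higher (159 ± 5.05 against 48.1 ± 3.46 CPM). BMP4 was 2.41-fold higher and the BMP receptor BMPR1B 22.5-fold lower (0.218 ± 0.0775 against 5.06 ± 0.666 CPM).

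Transcription factors that set cell identity differed in number and size. Of 42 developmental factors tested 19 were lower (27.6% of all genes were) and 16 higher (24.3%). FOXA2, a regulator of liver and gut, measured 1.26, 1.44 and 1.65 CPM in lineage 35 and 42.6, 48.6 and 45.1 CPM in lineage 45, 31.2-fold lower (log2 -4.96 ± 0.11, adjusted p = 4.2e-18). SOX4 was 47.3-fold lower (0.150 ± 0.0471 against 7.31 ± 1.5 CPM), KLF4 3.27-fold and EHF, an epithelial ETS factor, 4.76-fold. PAX8, a kidney and thyroid factor, was 5.07-fold higher, TFAP2C 3.11-fold and the luminal factor GATA3 2.40-fold. SPDEF, another luminal breast factor, was 50.9-fold lower (0.838 ± 0.220 against 42.8 ± 2.51 CPM), so these 2 luminal factors moved in opposite directions. Of 9 luminal breast markers tested 5 were lower (27.6% of all genes were) and 2 higher (24.3%), with a median log2 fold change of -0.323.

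HOX genes, which mark position along the body axis, were lower in every case called in the main test. Of 39 listed 16 were tested and 23 were below the filter. Of the 16, 13 were lower (27.6% of all genes were) and none higher, with a median log2 fold change of -1.51. HOXB9, the most abundant, measured 9.49, 10.9 and 8.56 CPM in lineage 35 and 18.9, 17.9 and 19.8 CPM in lineage 45, 1.96-fold lower (log2 -0.97 ± 0.11, adjusted p = 4.4e-07). HOXD1 was 10.4-fold lower (0.327 ± 0.0946 against 3.39 ± 0.316 CPM), HOXB3 2.76-fold and HOXC6 3.45-fold. The falls came from 3 clusters on different chromosomes: 6 of 7 tested HOXB genes, 4 of 5 HOXC genes and 3 of 3 HOXD genes, and the only tested HOXA gene was not called. With the 2 lineages fitted alone 1 HOX gene was higher. Their windows had medians of -0.276 (HOXB), -0.679 (HOXC) and 0.380 to 0.458 (HOXD). Only 3 HOX genes passed the filter of 5 CPM in 3 libraries, and all 3 were called lower.

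Imprinted genes, expressed from 1 parental copy, gave 5 higher (24.3% of all genes were) and 11 lower (27.6%) of 22 tested. The flippase ATP10A (chromosome 15, 25677273 to 25865172) measured 0.775, 0.526 and 0.809 CPM in lineage 35 and 43.6, 36.9 and 38.3 CPM in lineage 45, 56.6-fold lower (log2 -5.82 ± 0.15, adjusted p = 4.9e-17). MKRN3, on the same chromosome (23565674 to 23630075), went the other way, 32.8-fold higher (3.61 ± 0.232 against 0.108 ± 0.0325 CPM). The tumor suppressor WT1 was 43.1-fold higher (8.93 ± 0.333 against 0.203 ± 0.0307 CPM). Of cancer-testis antigen genes only 10 of 44 were tested, and SPANXB1 fell 50.5-fold (5.10 ± 0.802 against 257 ± 17.9 CPM), a gene with near-identical copies.

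Of the metabolic lists, which bear on the subject of the series, serine and folate genes had the highest median. They gave 11 higher (24.3% of all genes were) and 3 lower (27.6%) of 24 tested. Their median log2 fold change was 0.190 against -0.031 for all genes. PHGDH, the first enzyme of serine synthesis, was the exception in size, at 0.323, 0.194 and 0.0934 CPM in lineage 35 and 3.59, 2.70 and 3.88 CPM in lineage 45 (16.5-fold lower, log2 -4.05 ± 0.32, adjusted p = 1.7e-09). The thymidylate synthase TYMS was 2.16-fold higher (465 ± 25.9 against 216 ± 12.5 CPM). The glutamine and proline list had 4 higher and 6 lower of 18, so 55.6% were called against 51.8% of all genes.

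Glycolysis genes had 7 higher and 10 lower of 25, TCA cycle genes 7 and 5 of 30, cholesterol genes 6 and 6 of 25 and NRF2 targets 8 and 5 of 25. In this order 68.0%, 40.0%, 48.0% and 52.0% were called, against 51.8% of all genes. The list medians lay between -0.108 and 0.050 and the members moved both ways. GAPDH was 1.55-fold lower (3385 against 5244 CPM) and ENO1 1.4-fold higher (3156 against 2257 CPM). Both lie among neighbors shifted the same way. The window of 50 genes around GAPDH on chromosome 12 had a median log2 fold change of -0.595. The window around ENO1 on chromosome 1 had 0.427. Without replicate 3 of lineage 35, 4 glycolysis genes were called higher.

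Growth genes were called less often than genes in general, and most calls were higher. DNA replication genes gave 11 higher and 1 lower of 31, mitosis genes 10 and 0 of 28, and ribosomal protein genes 16 and 2 of 49, so 38.7%, 35.7% and 36.7% were called against 51.8% of all genes. Of all genes 24.3% were called higher. The medians of the 3 lists were 0.132, 0.081 and 0.078 against -0.031. MCM3 was 1.90-fold higher (607 ± 27.0 against 319 ± 20.4 CPM) and KIF23 1.80-fold (339 ± 24.9 against 188 ± 7.0 CPM), but MKI67 was not called (724 ± 92.6 against 1029 ± 64.0 CPM, log2 -0.51 ± 0.23), except as lower when the 2 lineages were fitted alone. MCM3 on chromosome 6, TYMS on 18 and KIF23 on 15 lie on chromosomes whose genes were higher in general (values below). Mitosis genes were called lower in some other fits, 3 with the 2 lineages alone and 2 without replicate 3 of lineage 35, and the 1 lower replication gene became 3 without replicate 1 and 0 without replicate 2 or 3 of lineage 35 or replicate 2 of lineage 45.

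**Figure D3:**
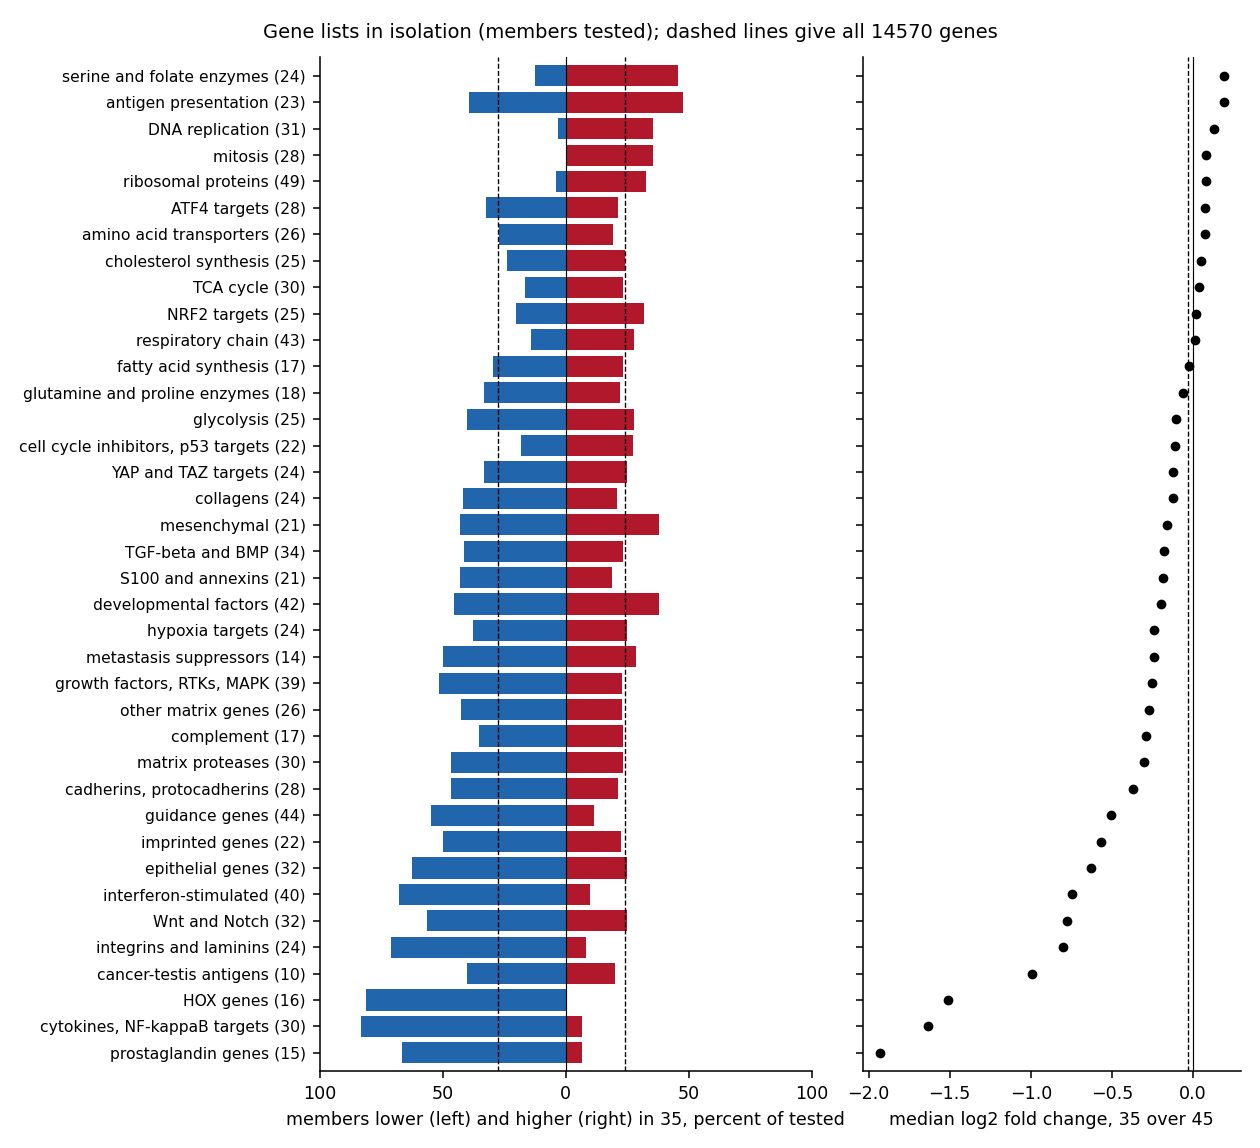
Left, the percent of tested members of each list, other than the cell type marker lists, called lower (blue, leftward) or higher (red, rightward) in lineage 35, with the number tested in brackets. Right, the median log2 fold change of the tested members, where dashed lines give the same for all 14570 genes (27.6%, 24.3% and -0.031). The cytokine and HOX lists reach farthest to the left in the left panel and the prostaglandin, cytokine and HOX medians lie lowest, while no median plotted exceeds 0.190.

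Genes that elsewhere mark blood and vessel cells were higher in lineage 45 and moved with the lower gene groups above. Of 6 leukocyte genes tested 5 were lower in lineage 35 and of 5 endothelial and erythroid genes 4 (27.6% of all genes were lower). Summed levels were 13.6 to 33.0 CPM in lineage 35 and 146 to 185 CPM in lineage 45 for the leukocyte list of 9. The sums for the endothelial list of 9 were 7.13 to 8.17 CPM and 121 to 128 CPM. Nearly all of this came from 2 genes, LAPTM5 (18.3 ± 8.05 against 162 ± 19.7 CPM) and ESAM (6.65 ± 0.626 against 116 ± 3.79 CPM). The defining genes CD3E, CLDN5 and HBB had 0 counts in all 6 libraries. Over the lineage 35 and the lineage 45 libraries CDH5 had 0 and 1 counts, HBA2 2 and 0, and CD79A 12 and 11. Fibroblast markers summed to 16.6 to 20.1 CPM and 15.9 to 19.5 CPM, with 1 of 5 tested higher and 2 lower. Without replicate 2 of lineage 35, 3 leukocyte genes were lower. Without replicate 1 or replicate 3 of lineage 45 no fibroblast marker was higher, and without replicate 2 of lineage 45, 1 was lower. The part of other cell types in these differences was not tested.

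Differences also followed position along chromosomes. The median log2 fold change was 0.615 on chromosome 18, 0.467 on chromosome 15, 0.436 on chromosome 6, 0.344 on chromosome 21 and 0.225 on chromosome 2. It was -0.394 on chromosome 12, -0.318 on chromosome 14 and -0.249 on chromosome X. The standard deviation of these medians over the 3 lineage 35 libraries was 0.0584 or less for the 8 chromosomes named. On chromosome 18, 72.0% of 189 genes were called higher, and on chromosome 12, 53.9% of 718 were called lower, against 24.3% and 27.6% of all genes.

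Windows of 50 neighboring genes showed that the shifts covered blocks. Of 261 windows 49 had a median over 0.3 and 25 a median under -0.3, and the extremes were 0.909 and -0.766. The 9 windows at the start of chromosome 1, from WASH7P to PLK3, had medians of 0.390 to 0.641, with 304 of 450 genes higher and 39 lower. The 3 windows of chromosome 4 from METTL14 to UFSP2 had medians of 0.308 to 0.419, with 82 of 150 genes higher and 27 lower. The 9 windows of chromosome 6 from DUSP22 to CD109 had medians of 0.529 to 0.909, with 330 of 450 higher. All 8 windows of chromosome 15 had medians of 0.425 to 0.574, with 246 of 400 genes higher. In the lower direction, the 8 windows of chromosome 12 from SLC6A12 to MSRB3 had medians of -0.766 to -0.458, with 305 of 400 genes lower and 11 higher, and the 4 windows of chromosome 14 from DUXAP10 to JKAMP had medians of -0.721 to -0.361. Chromosome X ended in 4 windows, from FAM133A to F8A1, at -0.685 to -0.481. DNA was not measured in these files.

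**Figure D4:**
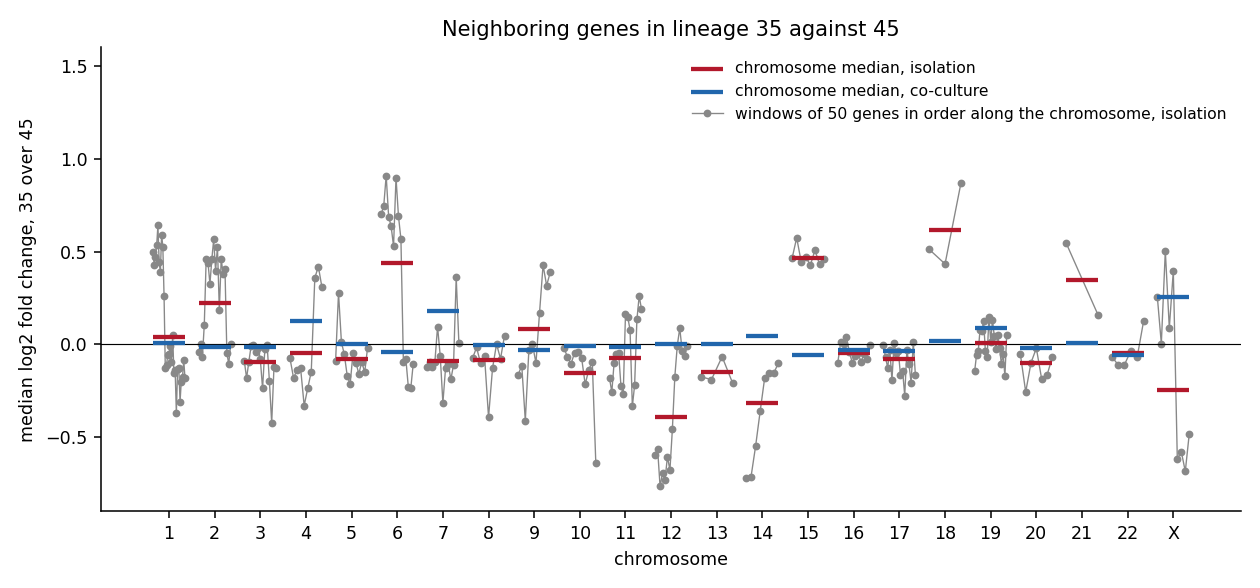
Median log2 fold change of lineage 35 over lineage 45 for each chromosome (red lines, isolation, and blue lines, co-culture) and for consecutive windows of 50 genes in isolation (gray points in order along the chromosome, with no distance scale). Chromosomes 1, 2, 6, 12, 14 and X hold runs of windows over 0.3 or under -0.3 that begin or end within the chromosome. All windows of chromosomes 15 and 18 lie above 0.3.

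Many strong differences lay outside these blocks. Of the 621 at least 2-fold higher genes that lay in a window, 295 (47.5%) were in windows with a median over 0.3, which held 18.8% of all genes in windows. Of the 1476 at least 2-fold lower genes, 305 (20.7%) were in windows under -0.3, which held 9.58%. After the window's median was subtracted, 402 of those 621 and 1286 of those 1476 genes were still at least 2-fold apart.

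Isolated lineage 22 lay nearer lineage 45 at most genes that were at least 2-fold lower in lineage 35. Of 1594 genes at least 2-fold lower in lineage 35, lineage 22 lay nearer lineage 45 for 1471 (92.3%), and of 715 higher genes for 493 (69.0%). These shares describe genes chosen by the lineage 35 and 45 libraries and were not tested. NTN4 (172 CPM), CDH11 (78.1 CPM), ITGB2 (54.5 CPM) and FOXA2 (46.7 CPM) were all high in lineage 22, as in lineage 45, and UGT8 and LINC01296 (14.5 CPM) were high in lineage 22 as in lineage 35.

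At genes lower in lineage 35, lineages 03, 10 and 13 were more often nearer lineage 35. Their table was normalized separately, so distances and levels set across the 2 tables depend on that scaling, and they are given as a description with no test. Of the 528 genes at least 8-fold lower in lineage 35, the level in lineage 03 was nearer lineage 35 for 355 (67.2%), in lineage 10 for 383 (72.5%) and in lineage 13 for 428 (81.1%). In Pop only 12 (2.27%) were nearer lineage 35, and in lineage 22 only 24 (4.55%). The median level of these genes was 0.0513 CPM in lineage 35 and 1.39 CPM in lineage 45, and it was 0.123, 0.130 and 0.0854 CPM in lineages 03, 10 and 13 and 1.15 CPM in Pop. F13A1 and PKIA had 0 CPM in each of lineages 03, 10 and 13, and DTNA was at 0.0202 CPM or less there, while Pop had 4.44, 6.92 and 10.8 CPM. For the 91 genes at least 8-fold higher in lineage 35, 77 (84.6%) were nearer lineage 35 in Pop and 64 (70.3%) in lineage 03, but 45 (49.5%) in lineage 10 and 44 (48.4%) in lineage 13.

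The same 2 labels were also compared after co-culture, and the libraries labelled 35 were there less like isolated lineage 35 than like isolated lineage 45. The mean expression of the co-culture libraries labelled 35 correlated at 0.929 with isolated lineage 35, 0.969 with isolated lineage 45 and 0.991 with co-cultured lineage 45. Closeness among co-culture groups was not particular to label 35. Co-cultured 22 correlated at 0.968 with isolated 22 and at 0.985 and 0.987 with co-cultured 35 and 45. Co-cultured 45 correlated at 0.976 with isolated 45. Among isolated groups, though, co-cultured 22 and 45 each correlated most with their own lineage. Isolated lineage 35 itself correlated at 0.927 to 0.947 with the other 5 groups of the table. THBS2, which reached 1 CPM in no group but isolated lineage 35, was at 0.0192 CPM in the co-culture libraries labelled 35, and SNHG18 was at 0.0479 CPM, so the co-culture values below describe libraries labelled 35. Time in culture, the sort and the kit for RNA also set the co-culture libraries apart, and these cannot be told apart from the co-culture itself. The isolation contrast uses these libraries only through the shared gene filter, scaling and estimate of spread. Fitted with its own 6 libraries alone it called 3735 genes higher and 3881 lower, and at 2-fold 707 higher and 1391 lower.

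Between the co-culture libraries labelled 35 and 45, 936 genes (6.42%) were higher and 915 (6.28%) lower (613 higher without replicate 3 of the co-cultured 35 libraries). At 2-fold 126 were higher (0.865%) and 297 lower (2.04%), and the median absolute log2 fold change was 0.152 against 0.352 in isolation. Of the 715 genes at least 2-fold higher in isolation, 77 were called higher, 73 lower and 565 not called in co-culture. Of the 1594 lower genes, 227 were called lower, 164 higher and 1203 not called. Across all genes the 2 sets of log2 fold changes had a correlation of 0.068, a description in which genes are not independent. The lists with large falls in isolation had co-culture medians nearer 0, at -0.202 for cytokines, 0.071 for prostaglandin genes, 0.142 for HOX genes, -0.058 for interferon-stimulated genes and 0.058 for integrins and laminins. Other list medians moved away from 0, from 0.075 to 0.295 for ATF4 stress genes, from -0.125 to -0.251 for collagen chains and from 0.050 to -0.160 for cholesterol genes. The chromosome median was 0.017 on chromosome 18 and 0.002 on chromosome 12 in co-culture. It was farther from 0 than in isolation on chromosome 7 (0.180 against -0.091), chromosome 4 (0.127 against -0.049), chromosome 19 (0.090 against 0.006), chromosome 22 (-0.059 against -0.047) and chromosome X (0.256 against -0.249). The 3 windows of chromosome 4 from METTL14 to UFSP2 kept their side, at 0.405 to 0.528 in co-culture, while the 4 windows at the end of chromosome X were at 0.400 to 0.496, on the other side of 0.

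In both conditions 33 genes were called and at least 2-fold higher, and 122 called and at least 2-fold lower. Named first are the largest rises and falls in isolation that were also called in co-culture, without overlap of libraries in either. UGT8 was higher in the libraries labelled 35 in co-culture too, at 19.6 ± 1.4 against 4.19 ± 1.45 CPM (log2 2.23 ± 0.17, adjusted p = 6.7e-08). CST6 (log2 1.97 ± 0.20), LINC01296 (2.02 ± 0.17), FAT3 (1.74 ± 0.29), DUXAP10 (1.66 ± 0.22) and PRDM16 (1.4 ± 0.41) kept their direction at smaller size. PRDM16 was low in both co-culture groups, at 0.357 against 0.133 CPM. COX7B2 was lower in both, at 0.944 ± 0.449 against 9.63 ± 3.67 CPM in co-culture (log2 -3.34 ± 0.31, adjusted p = 6.6e-06), and so were CST1 (log2 -3.52 ± 0.46), HSPA12A (-1.37 ± 0.15), AFF3 (-1.32 ± 0.11), KCNK1 (-0.85 ± 0.15) and ADAMTS1 (-0.68 ± 0.16). HLA-DRB1 (log2 -2.28) and HLA-DPA1 (log2 -1.38) were also called lower in co-culture, while HLA-B turned to -0.40.

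**Figure D5:**
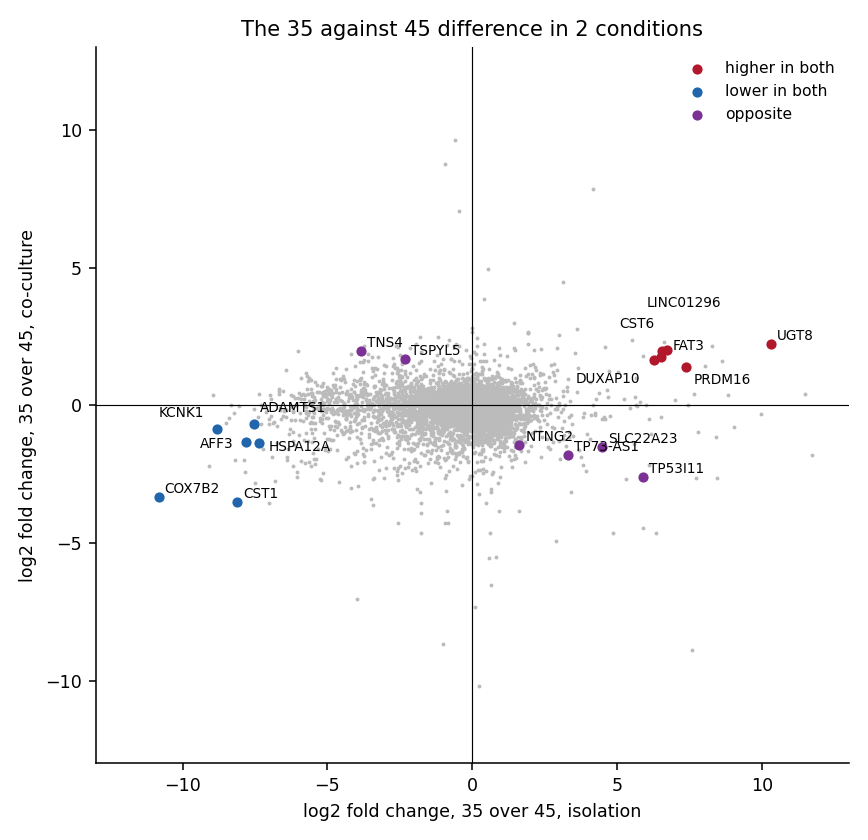
Fitted log2 fold change of label 35 over label 45 in isolation (x axis) and in co-culture (y axis) for 14570 genes. Named points are genes called with no overlap of libraries in both conditions in the same direction (red and blue) or in opposite directions (purple), and the cloud is wide along x and narrow along y.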

How the data were processed

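RNA was measured in 30 libraries, of which the 6 of lineages 35 and 45 in isolation are compared here. The authors deposited length-scaled estimated counts (expected counts) per gene. The submitters' processing notes name STAR 2.6.1d, Salmon 1.4.0 and GRCh38, while the scaling tool, the annotation and the strand used for counting are not given in the sources used here. Reads of overlapping or antisense genes may therefore be mixed.

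Counts were rounded. All 18 libraries of the first table entered 1 edgeR 4.0.16 quasi-likelihood fit (R 4.3.3, robust, TMM scaling, filterByExpr), with a coefficient for each of 6 groups and contrasts for isolation, co-culture and their difference. A gene was called at a Benjamini-Hochberg adjusted p under 0.05 over 14570 genes, and every adjusted p printed is from this test. The script was tested on simulated data. SE is the absolute log2 fold change divided by the square root of F. CPM use TMM scaling. Ratios on 1 to 3 counts carry 95% counting intervals, which cover counting error only, and a group at 0 was set to a floor of 3 counts. Depth was 31197420 to 38843676 counts in the 6 libraries. The table of lineages 03, 10, 13 and Pop was scaled separately.

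Alternatives were RLE scaling, DESeq2 1.42.0, no filter, a filter of 5 CPM in 3 libraries, the compared groups alone, a replicate block and each replicate left out. Gene coordinates are from GENCODE (GRCh38), and promoters from RefSeq. Promoter rows covered 73.2% of tested genes, under the 80% needed, so promoter sets were not compared.

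Named genes were the 14 largest rises and 14 largest falls at 5 CPM or more without overlap, up to 5 list members of smallest p, genes called in both conditions, and genes close to absent in 1 lineage. Other list members were named after their values were seen. Members and lists were chosen with earlier results of these data known. Results for a few genes are not reported here.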

Additional observations from a re-analysis of the deposited data

Results flagged for a closer look

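The difference between labels 35 and 45 was not the same in isolation and in co-culture for 6158 of 14570 genes (42.3%), by the interaction term of the edgeR quasi-likelihood fit with Benjamini-Hochberg adjusted p under 0.05. Since the co-culture libraries labelled 35 correlate more with isolated lineage 45 than with isolated lineage 35, these values compare labels.

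In 6 genes of at least 5 CPM the 2 contrasts were called in opposite directions, with the largest sizes of this kind. TP53I11 was 58.9-fold higher in isolation (25.3 ± 3.17 against 0.428 ± 0.0674 CPM, SD, n = 3) and lower in co-culture (0.654 ± 0.361 against 4.0 ± 0.225 CPM), a log2 difference of the contrasts of 8.48 ± 0.38 (SE, edgeR adjusted p = 6.9e-13). TNS4, a focal adhesion tensin, was lower in isolation (6.99 ± 0.328 against 99.6 ± 12.6 CPM) and higher in co-culture (335 ± 64.9 against 84.7 ± 24.8 CPM), a difference of -5.82 ± 0.30. SLC22A23, a solute carrier of unknown substrate, went from 10.3 against 0.453 CPM in isolation to 1.57 against 4.43 CPM, a difference of 5.98 ± 0.33.

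TP73-AS1, named as an antisense RNA but annotated as a transcribed pseudogene, went from 24.3 against 2.47 CPM in isolation to 0.541 against 1.89 CPM in co-culture, a difference of 5.09 ± 0.31. Reads from any stretch where it overlaps TP73 cannot be told from those of TP73 if counting ignored strand. TSPYL5 went from 1.97 against 9.85 CPM to 41.4 against 12.8 CPM, a difference of -4.02 ± 0.20. The netrin-like NTNG2 went from 7.26 against 2.35 CPM to 1.36 against 3.72 CPM, a difference of 3.07 ± 0.23. Culture time, sorting and RNA kit cannot be told apart from co-culture here.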

How the results depend on the processing

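The filter of 5 CPM in 3 libraries, which tests fewer genes, gave 357 higher and 793 lower genes at 2-fold instead of 715 and 1594. Genes close to absent from lineage 35 numbered 6 instead of 3 with up to 9 summed counts allowed, and 11 with at least 2 CPM in lineage 45. Those close to absent from lineage 45 numbered 9 instead of 7 with up to 9 summed counts, and 10 with at least 2 CPM in lineage 35. The excess of genes lacking in lineage 45 thus depended on the cutoff. At a 4-fold threshold lineage 22 lay nearer lineage 45 for 53.2% of higher genes (69.0% at 2-fold) and 94.8% of lower genes (92.3%). With each replicate left out in turn, genes higher in isolation ranged from 3137 to 3235 and lower from 3655 to 3777, at 2-fold from 694 to 740 and from 1565 to 1606, in co-culture from 613 to 805 and from 678 to 922, and for the difference between conditions from 5611 to 6045. The lowest co-culture count, 613 higher genes, was without replicate 3 of the libraries labelled 35.

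A fit with the replicate number as a block called 3528 genes higher and 4038 lower in isolation. Same-numbered isolation libraries did not deviate together (r of -0.041, 0.042 and -0.101). With 3 pairs, measured from means of 3 libraries, this cannot show whether same-numbered libraries were made together. Of 3271 values for 276 genes, the named ones and the leading members of each list, 3254 kept direction and side of the threshold, 14 lost the call (COL1A1, PDGFRB, CORO1A, CD14 and VWF), 3 gained it (LUM, RGS5 and MKI67) and 0 reversed. Of 1032 list counts 987 stayed within 1.5 times. RLE and DESeq2 scaling moved the median of all genes by 0.0112 and 0.0116.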
